A study of Mus musculus with 21 samples.

Results

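Gene expression in the gastrocnemius of mice that had trained and then rested was compared with that of mice that had never trained. The comparison used the 14 libraries, of 21 in all, whose labels name the Activity Reduction group (n = 7) or the Inactive group (n = 7). All 21 mice were female C57BL/6NJ mice, 10 weeks old at the start. The Activity Reduction mice ran on a treadmill 5 days a week for 4 weeks, in sessions that reached 40 min and consisted of a slow warm-up and a longer run at about 70% of maximal speed, and were then inactive for 2 weeks. The Inactive mice stayed in standard cages for 6 weeks and did not train. Both groups, and the 7 mice of the Active group that trained for all 6 weeks, were accustomed to the treadmill, ran graded maximal tests during the study and again some days before the muscle was taken, and were fasted on the day, so no group was free of running. Each library was made from poly(A) RNA of the medial belly of the muscle. It therefore averages over fibers of all types and the other cells of the tissue, and fewer cells of a type cannot be told apart from less RNA per cell.

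The gastrocnemius of the mouse is a mixed muscle in which fast fibers, which rely on glycolysis and express Myh4, far outnumber slow fibers, which are rich in mitochondria and express Myh7. Endurance training shifts muscle toward oxidative metabolism, and the shift is known to fade when training stops. The transcripts considered here belong to the systems that respond to use: contractile proteins, ion channels that set excitability, peptides that muscle secretes, the handling of glucose and fat, and transcription factors that keep fiber and limb identity.

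The 14 libraries held between 48906675 and 59785132 counted reads, and no 2 of the 21 held the same values (highest correlation of log2 CPM between any pair, 0.9886). CPM is the count of a gene scaled to the total of its library. Fast fiber transcripts dominated every library, with 12 marker genes summing to between 215127 and 245164 CPM in the Activity Reduction group and between 219487 and 232098 in the Inactive group. Alb, the liver gene for albumin, was above 250 CPM in 2 Activity Reduction libraries (replicates 1 and 2), in 1 Inactive library (replicate 1) and in 5 Active libraries, and no library lay between 161 and 365 CPM. In all, 24 hepatocyte markers summed to between 197 and 1805 CPM in the Activity Reduction group and to between 262 and 2586 in the Inactive group. Results are therefore also given from a fit with this division of the libraries as a covariate, called the Alb covariate here. Endothelial, smooth muscle, macrophage, lymphocyte, neutrophil and mast cell, epidermal, fibro-adipogenic progenitor and adipocyte markers had no tested member with an unadjusted p under 0.05, and with the Alb covariate 1 adipocyte marker (Cidea) was lower. Only 1 of 10 lymphocyte, 3 of 8 epidermal and 6 of 10 neutrophil and mast cell markers had enough counts to be tested. The 9 tenocyte markers had a median log2 fold change of -0.63 (-0.60 with the Alb covariate), 7 of them negative, but the one past that level in both fits was Scx, at 0.53, and their sums overlapped widely (13.9 to 84.9 CPM in the Inactive and 26.7 to 46.9 in the Activity Reduction group). Of 9 Schwann cell markers 1 was higher (Sox10), and 2 with the Alb covariate (Sox10 and S100b). Of 6 erythroid markers 2 were higher (Alas2 and Hba-a1) and of 8 satellite cell markers 2 (Pax7 and Cdh15), and with the Alb covariate 1 of each (Alas2 and Pax7). Their part in the results was not tested.

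Few transcripts differed between the groups once all genes were allowed for. Calls of differential expression required an adjusted p (Benjamini-Hochberg, over 16129 genes tested) under 0.05 together with a log2 fold change larger than 0.25 in size. By edgeR's quasi-likelihood test, Smyd2 and Kcnj11 rose in the Activity Reduction group and no transcript fell, which makes 2 of the 16129 genes (0.0124%). With the Alb covariate Smyd2 alone was called (0.0062%), and Kcnj11 had an adjusted p of 0.0505. At an unadjusted p under 0.05, 676 genes (4.19%) were higher and 571 (3.54%) were lower, and with the Alb covariate 732 (4.54%) were higher and 599 (3.71%) were lower. The counts of list members given below are to be read beside these shares. DESeq2 on the 14 libraries, with the same thresholds, called 43 of the 16664 genes to which it gave an adjusted p (0.258%), 26 of them higher and 17 lower, and 33 of the 43 were also among the 35 that it called with the Alb covariate. The median log2 fold change over all genes tested was 0.0057, and its median size was 0.079.

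**Figure D1:**
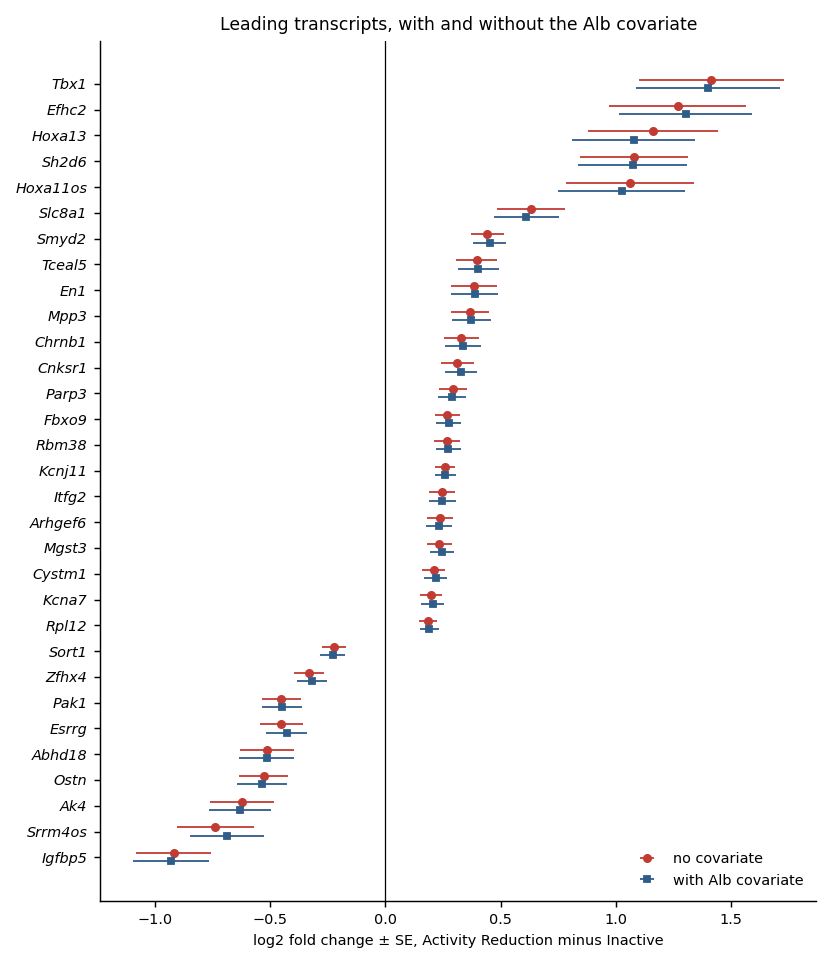
Log2 fold change between the Activity Reduction and Inactive groups (x axis, with its standard error as a bar) for the 29 named transcripts among the 30 with the smallest p, and for En1 and Hoxa11os. Circles give the fit without a covariate and squares the fit with the Alb covariate; each pair lies close together, with Tbx1 at 1.42 and 1.40 and Igfbp5 at -0.92 and -0.93.

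Sequences directly upstream of the start of the canonical transcript are given for Smyd2 and Kcnj11, the called transcripts, and for Igfbp5 and Ostn, which encode secreted proteins and had lower counts. Each is 250 bases long, was read 5′ to 3′ on the strand of the gene from the GRCm39 genome, and lies on the minus strand for Smyd2, Kcnj11 and Igfbp5 and on the plus strand for Ostn. The positions are chr1:189655059-189655308 for Smyd2, chr7:45749662-45749911 for Kcnj11, chr1:72914044-72914293 for Igfbp5 and chr16:27125924-27126173 for Ostn. The windows of Kcnj11 and Ostn lie inside the annotated spans of these genes, which begin farther upstream. That of Smyd2 overlaps the edge of its span. These windows are therefore upstream of the canonical transcript only, not of every annotated start. Capitals mark matches on either strand to CAGCTG, an E-box of the form that myogenic factors recognize.
Smyd2: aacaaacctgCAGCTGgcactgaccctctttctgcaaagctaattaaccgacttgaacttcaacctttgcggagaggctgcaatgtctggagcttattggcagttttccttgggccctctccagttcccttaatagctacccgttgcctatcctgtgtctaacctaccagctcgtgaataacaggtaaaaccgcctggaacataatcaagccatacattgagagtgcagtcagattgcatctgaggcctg
Kcnj11: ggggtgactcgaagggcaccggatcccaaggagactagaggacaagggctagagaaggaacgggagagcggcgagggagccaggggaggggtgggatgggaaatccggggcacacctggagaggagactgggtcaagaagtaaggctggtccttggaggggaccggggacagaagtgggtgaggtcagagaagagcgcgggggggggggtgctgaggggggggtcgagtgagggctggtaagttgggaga
Igfbp5: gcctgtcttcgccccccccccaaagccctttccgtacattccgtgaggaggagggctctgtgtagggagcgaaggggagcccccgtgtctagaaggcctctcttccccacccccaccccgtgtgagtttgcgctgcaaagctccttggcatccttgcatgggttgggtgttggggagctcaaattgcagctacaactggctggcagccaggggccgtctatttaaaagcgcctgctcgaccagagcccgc
Ostn: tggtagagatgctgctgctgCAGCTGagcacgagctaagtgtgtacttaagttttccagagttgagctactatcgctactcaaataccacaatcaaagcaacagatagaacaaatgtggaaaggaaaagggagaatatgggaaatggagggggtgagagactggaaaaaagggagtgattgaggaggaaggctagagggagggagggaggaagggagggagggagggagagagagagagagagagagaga
The E-box letters occurred once upstream of Smyd2, 240 bases before the start, and once upstream of Ostn, 230 bases before it, and they occur in 11.9% of the 21770 upstream sequences of protein-coding genes searched in the same way. The nuclear receptor half-site AAGGTCA (3.93% of all) and the TATA box letters TATAAA (11.9% of all) had no match in these 4 windows. The G and C share was 48.4% for Smyd2, 64.8% for Kcnj11, 62% for Igfbp5 and 48.8% for Ostn, beside a median of 53.2% over all upstream sequences.

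Smyd2 encodes a lysine methyltransferase that, in muscle, acts in the cytoplasm on proteins of the sarcomere as well as on histones. Its normalized counts ranged from 7775 to 9290 (median 8080) in the Inactive libraries and from 9719 to 13240 (median 10972) in the Activity Reduction libraries. All 7 Activity Reduction libraries lay above the highest Inactive library. The log2 fold change was 0.44 (SE 0.0735, edgeR adjusted p = 0.0355), and with the Alb covariate it was 0.45 (edgeR adjusted p = 0.0431). Within the libraries below 250 CPM of Alb, 5 Activity Reduction and 6 Inactive, the log2 ratio of the means was 0.44, and in the 3 libraries above it was 0.48. The Active libraries ranged from 7868 to 10861 (median 8957), across the gap between the other groups, and their log2 fold change against Inactive was 0.11 (unadjusted p = 0.138). The gene spans chr1:189612683-189655081 on the minus strand of GRCm39, and 31.1% of its exonic length is also covered by Gm37422 on the other strand, a predicted gene without a row in the table. Reads of the pair could not be told apart unless strand was used in the counting, and the strand setting is not given in the sources used here.

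Kcnj11 encodes Kir6.2, the pore of the ATP-sensitive potassium channel, which links the energy state of a fiber to its excitability. The Inactive libraries held between 7486 and 8918 normalized counts (median 8232), and the Activity Reduction libraries held between 9174 and 10916 (median 9681). No library of one group reached into the range of the other, although the whole difference was a log2 fold change of 0.26 (SE 0.0429, edgeR adjusted p = 0.0355). It was also 0.26 with the Alb covariate (edgeR adjusted p = 0.0505), where the call was lost, and it was 0.26 both within the libraries low in Alb and within those high in Alb. In the fits that left out 1 of the 14 libraries, the log2 fold change of Kcnj11 stayed between 0.23 and 0.27 and that of Smyd2 between 0.40 and 0.47. The adjusted p then ranged from 0.0328 to 0.14 for Kcnj11 and from 0.0206 to 0.14 for Smyd2, and Kcnj11 was called in 1 and Smyd2 in 2 of the 14 fits. The gene is at chr7:45743377-45750188 and has no annotated exon overlap with another gene.

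Besides Smyd2 and Kcnj11, edgeR called no member of the channel and methyltransferase groups, without or with the Alb covariate. Of 12 potassium, sodium and chloride channel genes tested, 3 were higher, Kcnj11 among them, and 1 was lower at an unadjusted p under 0.05. With the Alb covariate 4 were higher and 1 lower. Over all genes tested, 4.19% were higher and 3.54% lower (4.54% and 3.71% with the Alb covariate). Abcc8, which encodes the sulfonylurea receptor SUR1 that partners Kir6.2 in pancreatic beta cells, had a log2 fold change of 0.34 (unadjusted p = 0.0047, 0.35 with the Alb covariate), whereas Abcc9, which encodes the receptor of the muscle channel, was at -0.01 (-0.02 with it). Kcna7, a voltage-gated potassium channel, ranged from 11926 to 14509 normalized counts in the Inactive group and from 14361 to 16466 in the Activity Reduction group, with 5 libraries above the highest Inactive library and a log2 fold change of 0.20 (edgeR adjusted p = 0.226, and 0.21 with the Alb covariate, adjusted p = 0.189). Kcnj2, the inward rectifier Kir2.1, was at -0.36 (unadjusted p = 0.034) in both fits. Among 10 genes for SMYD enzymes, myosin chaperones and titin, Smyd2 was the one with an unadjusted p under 0.05 in both fits, and Smyd1, the muscle-specific member of the family, had a log2 fold change of -0.01.

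**Figure D2:**
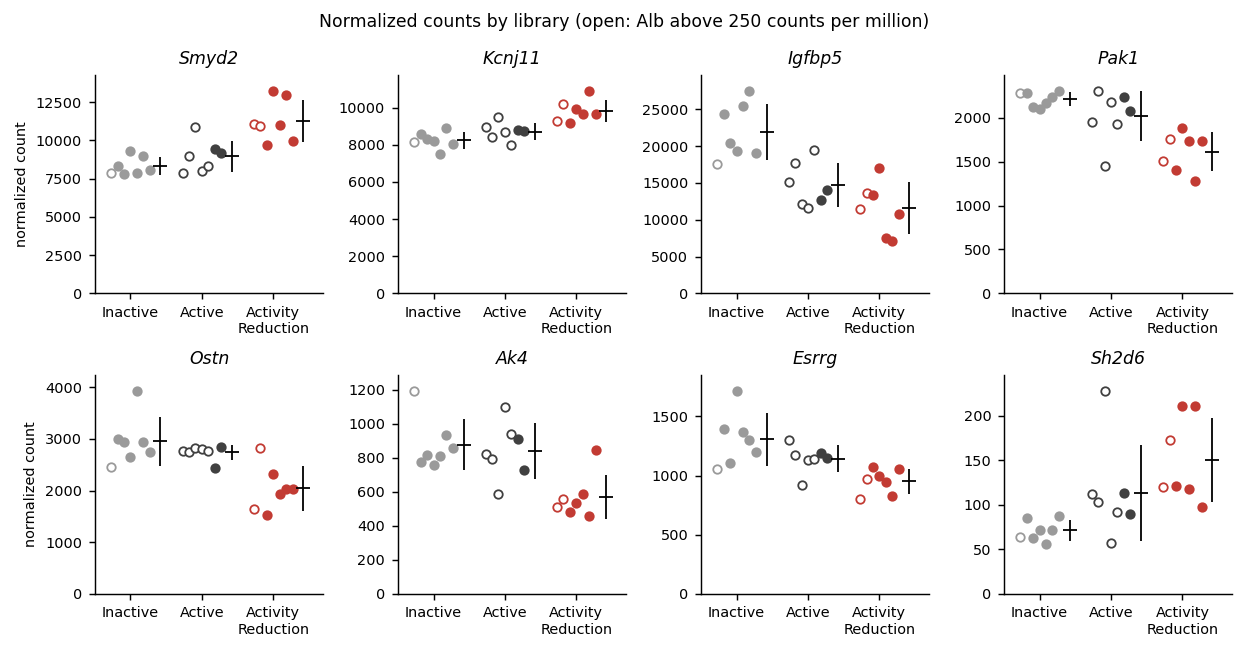
Normalized counts (y axis, from 0) of 8 transcripts in each library of the Inactive, Active and Activity Reduction groups; open points are libraries with Alb above 250 CPM, and the bar gives the mean ± SD (n = 7). The Activity Reduction libraries lie above all Inactive libraries for Smyd2, Kcnj11 and Sh2d6 and below all of them for Igfbp5 and Pak1.

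The transcripts with lower counts were led by Igfbp5, which encodes a binding protein that sequesters insulin-like growth factors in the matrix. It held between 17587 and 27523 normalized counts (median 20449) in the Inactive group and between 7171 and 17089 (median 11502) in the Activity Reduction group. Every Activity Reduction library was below every Inactive library, and the 2 lowest (replicates 5 and 6) held 7560 and 7171. The log2 fold change was -0.92 (SE 0.165, edgeR adjusted p = 0.0665), just outside the threshold, and with the Alb covariate it was -0.93 (edgeR adjusted p = 0.0505). DESeq2 on the 14 libraries gave adjusted p-values of 0.00198 and, with the Alb covariate, 0.00903. The ratio differed within the division by Alb, at -1.02 on the log2 scale in the libraries below 250 CPM and -0.49 in the 3 above, a difference that was not tested. In the Active group the median was 14045 and the log2 fold change against Inactive was -0.57 (unadjusted p = 0.00205). Of the 12 genes tested in the insulin-like growth factor system, Igfbp5 was the one with an unadjusted p under 0.05, and Igf1 was at 0.05 (-0.12 with the Alb covariate) and Igf1r at 0.05 (0.03 with it).

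Ostn encodes musclin, a peptide that fast fibers secrete in response to activity. Its counts were 2462 to 3929 (median 2940) in the Inactive group and 1522 to 2825 (median 2020) in the Activity Reduction group. Of the 7 Activity Reduction libraries, 6 were below the lowest Inactive library, and the exception was replicate 2, at 2825. The log2 fold change was -0.53 (SE 0.107, edgeR adjusted p = 0.134), and -0.54 with the Alb covariate (edgeR adjusted p = 0.115). DESeq2 on the 14 libraries called it (adjusted p = 0.00631) but did not with the Alb covariate (adjusted p = 0.117). The log2 ratio of the means of Ostn was -0.63 in the libraries below 250 CPM of Alb and -0.14 in the 3 above, a difference that was not tested. The 7 Active libraries, at 2433 to 2838, had a log2 fold change against Inactive of -0.10. The natriuretic peptide receptors of the same list had no member with an unadjusted p under 0.05.

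Pak1, a kinase that takes part in insulin-stimulated glucose uptake in muscle, ranged from 2099 to 2307 (median 2237) in the Inactive group and from 1282 to 1880 (median 1731) in the Activity Reduction group. The groups did not overlap. Its log2 fold change was -0.45 (SE 0.0857, edgeR adjusted p = 0.106), with -0.45 under the Alb covariate (edgeR adjusted p = 0.112), and DESeq2 on the 14 libraries called it in both fits. Sort1, which encodes sortilin, a sorting receptor of the vesicles that carry the glucose transporter GLUT4, was likewise lower in all 7 Activity Reduction libraries (4097 to 5009) than in all Inactive libraries (5075 to 6177). The difference was small, at -0.22 (edgeR adjusted p = 0.201, and -0.23 with the Alb covariate, adjusted p = 0.189). Of 18 genes of insulin signaling and glucose uptake, 2 were higher and 4 were lower at an unadjusted p under 0.05, without or with the Alb covariate. The lower genes were Pak1, Akt1 (-0.14), Irs1 (-0.35) and Grb10 (-0.11), and the higher genes were Tbc1d1 (0.55) and Slc2a4 (0.11), which encode a brake on GLUT4 vesicles and GLUT4 itself. The median of the list was -0.04.

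Ak4, a mitochondrial nucleotide kinase, was between 756 and 1192 (median 816) in the Inactive group and between 456 and 846 (median 533) in the Activity Reduction group. All Activity Reduction libraries but 1 were below the whole Inactive range and replicate 7 was inside it, as one was for Ostn. The log2 fold change of Ak4 was -0.62 (SE 0.138, edgeR adjusted p = 0.199) and -0.63 with the Alb covariate (edgeR adjusted p = 0.126), and the log2 ratio of means was -0.51 in the libraries low in Alb and -1.16 in the 3 high in Alb, where Inactive replicate 1 is the single Inactive library and has the highest count. None of the other 13 adenylate kinase, AMP deaminase and creatine kinase genes had an unadjusted p under 0.05. Zfhx4, a zinc finger homeobox factor, went from 497 to 612 (median 547) in the Inactive group to 374 to 549 (median 434) in the Activity Reduction group, with a log2 fold change of -0.33 (edgeR adjusted p = 0.134) and -0.32 with the Alb covariate. The noncoding Srrm4os was at -0.74 (edgeR adjusted p = 0.199) and -0.69 with the Alb covariate. All 3 were called by DESeq2 on the 14 libraries in both fits. Smyd2, En1, Hoxa11os, Ostn, Ak4, Srrm4os, Zfhx4 and Igfbp5 are 8 transcripts that the study named from these same libraries, so that their directions here are no independent evidence.

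Of the 29 named transcripts among the 30 with the smallest p (the other is a predicted gene), 20 had higher and 9 lower counts, and all 29 kept their direction with the Alb covariate, at 0.928 to 1.05 times the log2 fold change without it. For 8 of the 29 the 2 groups did not overlap, which the choice of the 29 by p itself favors. Over all genes tested, 9 (0.0558%) lay wholly above and 10 (0.062%) wholly below the Inactive range. Those above included Rpl12, a protein of the large ribosomal subunit, Arhgef6, an exchange factor for small GTPases, and the low transcript Sh2d6, which ranged from 55.2 to 87.2 in the Inactive group and from 97.2 to 211 in the Activity Reduction group. Those below included Ryr3, a calcium release channel, and Strit1, which encodes a small peptide that activates the calcium pump. In the Active group 26 of the 29 had the same direction against Inactive and 28 a smaller log2 fold change, and 25 had an Active mean between the means of the other groups. The Active and Activity Reduction changes are measured against the same Inactive libraries. The 29 were also chosen for a small p between the Activity Reduction and Inactive groups. That choice by itself favors smaller Active changes and Active means in between. These counts are therefore given as values, without the shares over all genes, and were not tested.

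Transcripts of slow fibers had lower mean counts in the Activity Reduction group and ranged widely among its mice. The 9 slow fiber genes tested all had negative log2 fold changes, 6 of them at an unadjusted p under 0.05, with a median log2 fold change of -0.59, and -0.56 with 6 lower under the Alb covariate. None of the 9 was called by edgeR or by DESeq2 on the 14 libraries. Myh7, the slow myosin heavy chain, held between 23363 and 33771 normalized counts (median 28044) in the Inactive libraries and between 4768 and 25297 (median 17764) in the Activity Reduction libraries, a log2 fold change of -0.74 (SE 0.276, edgeR adjusted p = 0.506, and -0.71 with the Alb covariate). Of the Activity Reduction libraries, 5 lay below the Inactive range and 2 lay within it. Tnnc1, the slow troponin C, was at -0.65 (-0.62 with the Alb covariate), and Atp2a2, the slow-fiber calcium pump SERCA2, was at -0.70 (-0.67 with it), with 26747 to 33582 counts in the Inactive and 8896 to 27588 in the Activity Reduction group. DESeq2 on all 21 libraries called Atp2a2. Reads of Myh7 and of Mhrt, a noncoding gene on the other strand that covers 24.6% of the exonic length of Myh7, may have been counted together if strand was not used.

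Summed over the 9 genes, the slow fiber level was 1900 to 2434 CPM in the Inactive group and 631 to 2008 in the Activity Reduction group. Of the 7 Activity Reduction libraries, 6 were below every Inactive library. Activity Reduction replicates 1, 2 and 4 and Active replicate 3 stood apart, at 911, 1207, 631 and 991 CPM, while the other 6 Active libraries were between 1730 and 2326. Of these 4 libraries, all but Activity Reduction replicate 4 were also above 250 CPM of Alb. Replicates 1 and 2 were the only Activity Reduction libraries above it, so the slow fiber level and the division by Alb are not separate in this group. As a share of the 4 adult myosin heavy chains, per base of exon, Myh7 made up 0.375 to 0.528% in the Inactive and 0.0829 to 0.375% in the Activity Reduction group. Myh4, the fastest chain, made up 91.2 to 93.8% and 91.9 to 94.8%, and Myh2 and Myh1 overlapped widely. In this test Myh4, Myh2 and Myh1 had an adjusted p of 0.58 or more (0.416 in the libraries below 250 CPM of Alb). Without the 4 libraries low in slow fiber transcripts, 4 of the 9 genes were lower at an unadjusted p under 0.05 and the median was -0.21. In the libraries below 250 CPM of Alb it was -0.43, with 3 lower.

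**Figure D3:**
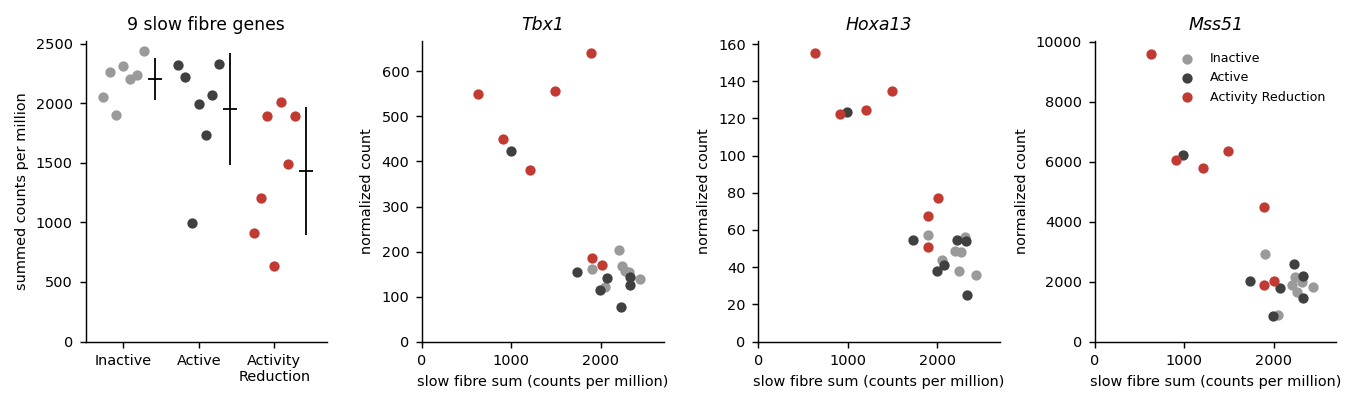
Left, summed CPM of 9 slow fiber genes in each library with the group mean ± SD (n = 7); the other panels plot normalized counts of Tbx1, Hoxa13 and Mss51 (y axes) against that sum (x axis), 1 point per library. High counts of Tbx1, Hoxa13 and Mss51 are found in Activity Reduction libraries and in Active replicate 3, the Active library with the lowest slow fiber sum (991).

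Some transcription factors of the Hox list and of the limb and muscle identity list had log2 fold changes above 1 that edgeR did not call. The lists as a whole were centered near 0. Tbx1 ranged from 120 to 204 (median 156) in the Inactive group and from 169 to 640 (median 450) in the Activity Reduction group. Hoxa13, the Hox gene of the distal limb, ranged from 35.6 to 57.1 (median 48.3) and from 50.6 to 155 (median 122). For Tbx1, Activity Reduction replicates 5 and 7 were within the Inactive range and the other 5 above it, with replicate 3 the highest. For Hoxa13, replicate 7 was within the range, replicates 3 and 5 were at 67.5 and 77.0, and the other 4 were at 122 or more. The log2 fold changes were 1.42 for Tbx1 (SE 0.316, edgeR adjusted p = 0.199) and 1.16 for Hoxa13 (SE 0.282, edgeR adjusted p = 0.226), and 1.40 and 1.08 with the Alb covariate. DESeq2 on the 14 libraries called both, with and without that covariate. Hoxa11 (1.02, and 0.97 with the Alb covariate) and its antisense transcript Hoxa11os (1.06, and 1.03 with it) completed the 3 of 23 Hox genes and antisense transcripts that were higher at an unadjusted p under 0.05, none being lower in either fit, and since Hoxa11 covers 26.6% of the exonic length of Hoxa11os on the other strand they may share reads. The median of the Hox list was -0.02 (-0.01 with the Alb covariate), with 11 positive and 12 negative. Among 19 limb and muscle identity factors, 5 were higher at that level (Tbx1, Lbx1, En1, Six2 and Tbx15) and 2 were lower, Zfhx4 among them, in both fits, and the median was 0.02. En1 was at 0.38 (edgeR adjusted p = 0.32) and 0.39 with the Alb covariate.

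Mss51, a mitochondrial protein of fast glycolytic fibers, was high in many of the same libraries. It held 886 to 2920 counts in the Inactive and 1885 to 9598 in the Activity Reduction group. The highest count, 9598, was in replicate 4, which had the lowest slow fiber sum, and replicates 5 and 7 held 2028 and 1885. Activity Reduction replicates 1, 2 and 4, low in slow fiber transcripts, held 5806 to 9598, and the other 4 held 1885 to 6356. These ranges overlapped. The log2 fold change was 1.44 (SE 0.376, edgeR adjusted p = 0.32) and 1.43 with the Alb covariate (edgeR adjusted p = 0.276), and DESeq2 on the 14 libraries called Mss51 in both fits. Active replicate 3 held 6237, and the other Active libraries 838 to 2598. Active replicate 3 also held 423 counts of Tbx1 and 123 of Hoxa13, beside highest values of 155 and 54.6 in the other Active libraries. Within the Activity Reduction group, the 3 libraries low in slow fiber transcripts held 381 to 551 counts of Tbx1, and the other 4 held 169 to 640. The highest of these, 640, was in replicate 3, whose slow fiber sum was 1894 CPM. For Hoxa13 the ranges were 122 to 155 and 50.6 to 135. With the slow fiber sum as a covariate, an alternative chosen after the data were seen, the log2 fold changes were 0.83 for Tbx1, 0.43 for Hoxa13 (unadjusted p = 0.0712), 0.48 for Mss51 (unadjusted p = 0.141) and 0.31 for Smyd2, and those of Igfbp5 and Ostn were -1.11 and -0.61. No transcript was called in that fit (smallest edgeR adjusted p 0.261), 1150 genes had an unadjusted p under 0.05, and DESeq2 was not run with it. The slow fiber sum itself differed between the groups, with 6 of 7 Activity Reduction libraries below every Inactive library. The covariate therefore also takes up part of the contrast. Changes nearer to 0 in that fit, and its lack of calls, cannot be told apart from this. Without the 4 libraries low in slow fiber transcripts, edgeR called 5 transcripts: Igfbp5 (-1.18, adjusted p = 0.0182), Ostn (-0.66, adjusted p = 0.0182), Pak1 (-0.53, adjusted p = 0.017) and the predicted gene Gm35378, which fell, and Pdlim5 (0.33, adjusted p = 0.0284), a Z-disc adapter, which rose. Smyd2 (0.39) and Kcnj11 (0.26) then had an adjusted p of 0.0893. The part of fiber composition in these differences was not tested.

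**Figure D4:**
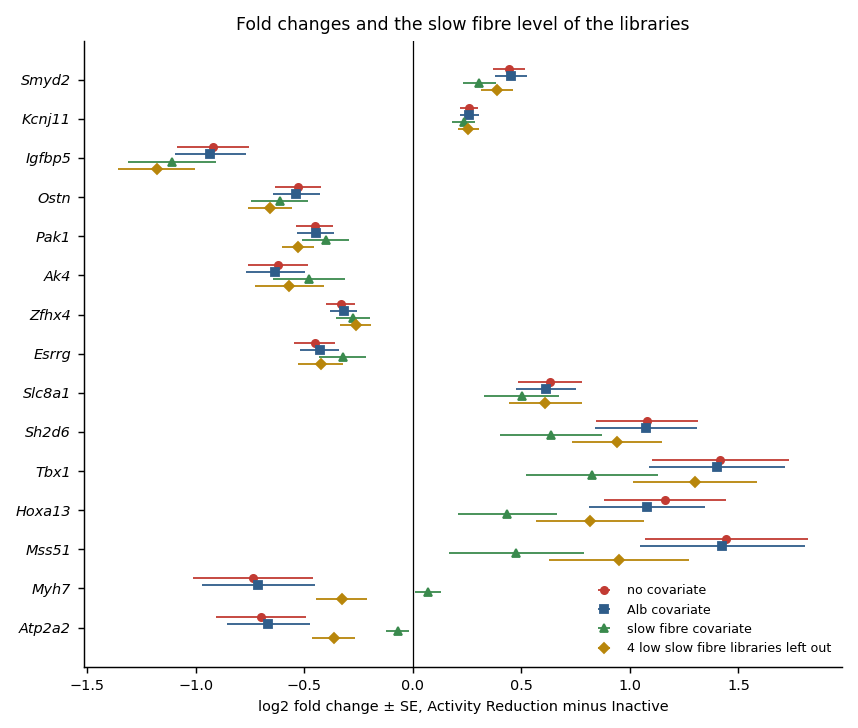
Log2 fold change between the Activity Reduction and Inactive groups (x axis, bars are standard errors) of 15 transcripts in 4 fits: without a covariate, with the Alb covariate, with the slow fiber sum as covariate, and without the 4 libraries low in slow fiber transcripts. Tbx1, Hoxa13 and Mss51 lie nearer to 0 with the slow fiber covariate (Hoxa13 0.43 against 1.16), whereas Igfbp5 and Ostn lie farther from it. Myh7 and Atp2a2 also lie nearer to 0, but they are among the genes summed in the covariate, so this follows from its construction. The slow fiber sum also differed between the groups, so this covariate takes up part of the contrast.

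Among genes of oxidative and glycolytic metabolism edgeR made no call, and DESeq2 called Esrrg, Ldhb and Slc16a3 in some fits. Esrrg, a nuclear receptor that drives the oxidative program, ranged from 1054 to 1715 (median 1300) in the Inactive group and from 801 to 1072 (median 969) in the Activity Reduction group, with 6 libraries below the Inactive range and a log2 fold change of -0.45 (edgeR adjusted p = 0.134, and -0.43 with the Alb covariate, adjusted p = 0.119). DESeq2 on the 14 libraries called Esrrg without and with the Alb covariate (adjusted p = 0.00512 and 0.00942). Its relative Esrra was at 0.22 and Ppargc1a, the coactivator of both, at 0.14 (unadjusted p = 0.00202 and 0.0491), and with the Alb covariate they were at 0.23 and 0.16. These were the members of 24 mitochondrial regulators past an unadjusted p of 0.05, 2 higher and 1 lower in both fits. Of 38 nuclear respiratory chain genes 3 were higher and none lower, and with the Alb covariate 6 were higher. The nuclear list named 43 genes, and those without a row under the symbols used were ATP synthase genes such as Atp5f1a and Atp5f1b. The 13 messengers of the mitochondrial genome likewise had no row under the symbols used and were not analysed here. Among 29 genes of glycogen and glycolysis, 5 were higher and 2 lower (5 and 1 with the Alb covariate), with Gbe1, the glycogen branching enzyme, at 0.19, the lactate exporter gene Slc16a3 at 0.33 and Tpi1 at 0.16, and Ldhb, the heart form of lactate dehydrogenase, at -0.32. With the Alb covariate these 4 were at 0.19, 0.34, 0.16 and -0.28. DESeq2 on 21 libraries called Ldhb and Slc16a3 (adjusted p = 0.0454 and 0.0489), and on 14 libraries it called Ldhb with the Alb covariate (adjusted p = 0.0433) but not without it (adjusted p = 0.0703), and Slc16a3 in neither fit (adjusted p = 0.529 and 0.487). In the fatty acid list 2 of 29 were lower (1, Lpl, with the Alb covariate), Lpl (-0.26) and Hadhb (-0.13), and lists for lipogenesis, antioxidant enzymes, angiogenic factors and pyruvate dehydrogenase had no member past that level without the covariate, and with it Vegfb (0.14) and Dlat (0.09) were higher.

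**Figure D5:**
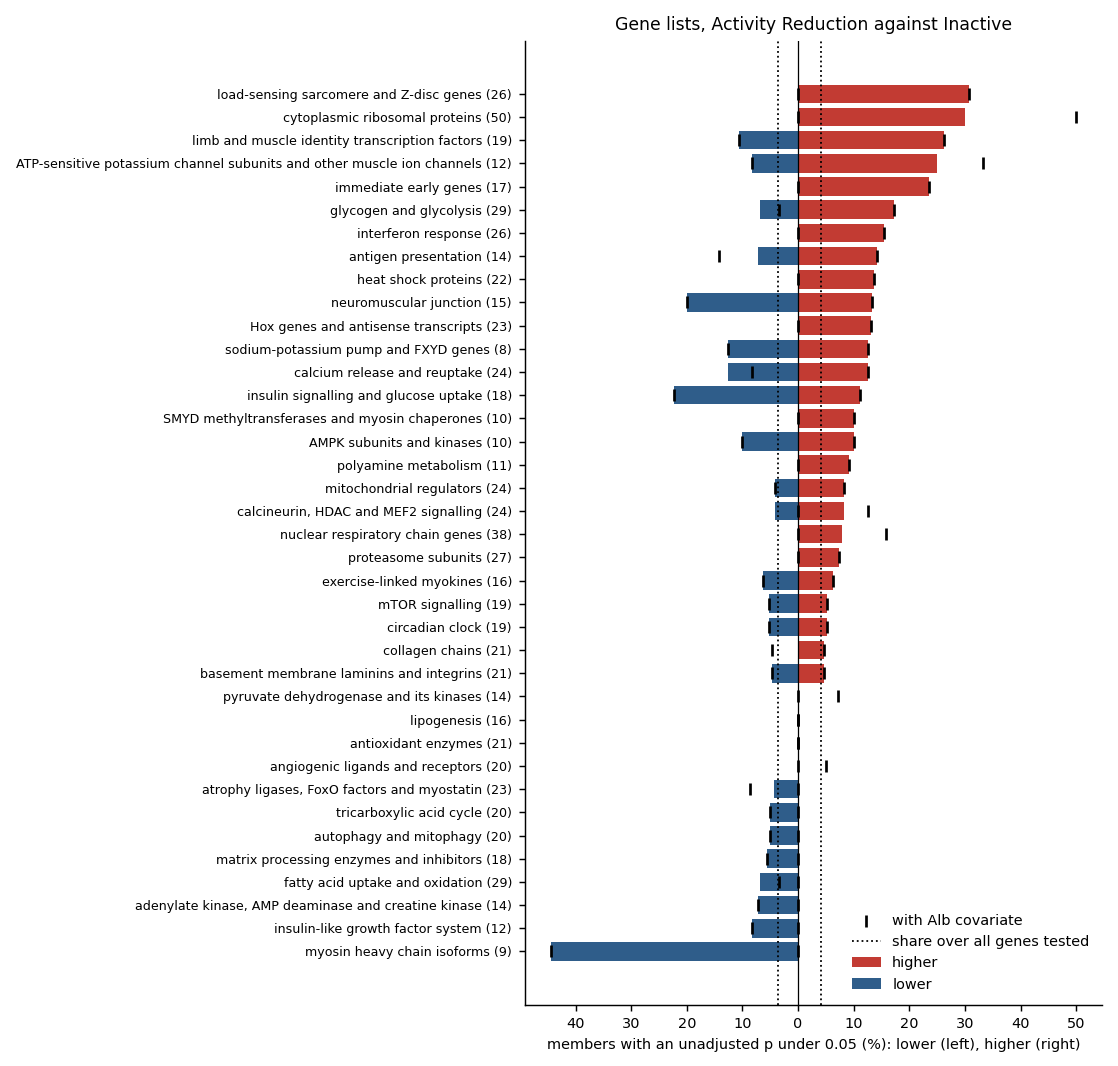
Share of the tested members (number in brackets) of each pathway list with 8 or more, marker lists not shown, with an unadjusted p under 0.05, higher to the right in red and lower to the left in blue; black ticks give the shares with the Alb covariate and dotted lines the shares over all genes tested (4.19% higher, 3.54% lower). The sarcomere and Z-disc list (8 of 26) and the ribosomal protein list (15 of 50) reach farthest to the right and the myosin heavy chains (4 of 9) farthest to the left.

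Several lists held small differences in one direction, with no member called by edgeR. Of 50 cytoplasmic ribosomal protein genes 15 were higher and none lower at an unadjusted p under 0.05, beside 4.19% of all genes, and 25 were higher with the Alb covariate. Rpl12 led them, with 8245 to 8880 counts in the Inactive and 9198 to 11051 in the Activity Reduction group, a log2 fold change of 0.18 (edgeR adjusted p = 0.159) and no overlap. The median of the list was 0.08, and 0.09 with the Alb covariate. Many ribosomal protein genes have near-identical processed copies, so their counts are uncertain. For sarcomere and Z-disc genes that respond to load, 8 of 26 were higher and none lower in both fits, with Myom2 at 0.21, the titin cap Tcap at 0.22, the muscle LIM protein gene Csrp3 at 0.52 and Ankrd2 at 0.34, but 5 were higher and 1 lower in the libraries below 250 CPM of Alb. The interferon response list had 4 of 26 higher in both fits (Gbp4, Iigp1, Gbp3 and Tap1, at 0.39 to 0.65), while classical members such as Isg15 and Ifit1 were at 0.05 and 0.04 (0.03 and -0.03 with the Alb covariate).

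At the neuromuscular junction, 2 of 15 genes were higher and 3 lower at an unadjusted p under 0.05 in both fits. Over all genes tested, 4.19% were higher and 3.54% lower (4.54% and 3.71% with the Alb covariate). Chrnb1, the beta subunit of the muscle acetylcholine receptor, ranged from 1400 to 1605 (median 1495) in the Inactive and from 1502 to 2407 (median 1821) in the Activity Reduction group, with a log2 fold change of 0.33 (edgeR adjusted p = 0.199, and 0.34 with the Alb covariate, adjusted p = 0.155). Chrnd, the delta subunit, was at -0.39 (edgeR adjusted p = 0.353, and -0.39 with the Alb covariate), and Colq, which anchors acetylcholinesterase in the synaptic cleft, was at -0.36 in both fits (edgeR adjusted p = 0.32 and 0.289). Dok7, needed to cluster the receptor, was at 0.21 in both fits. In calcium handling, Slc8a1, the sodium-calcium exchanger, ranged from 476 to 797 (median 635) in the Inactive and from 618 to 1308 (median 1069) in the Activity Reduction group. All Activity Reduction libraries but 1 exceeded the Inactive range, and the log2 fold change was 0.63 (edgeR adjusted p = 0.199) and 0.61 with the Alb covariate. Of 24 genes of calcium release and reuptake, 3 were higher and 3 lower, the lower ones being Atp2a2, Casq2 and Sln, all transcripts found in slow fibers. With the Alb covariate 3 were higher and 2 lower, Sln then being at -0.36 (unadjusted p = 0.0528).

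The largest value among immediate early genes rested on 1 library. Of 17 tested, 4 were higher at an unadjusted p under 0.05 with and without the Alb covariate. Over all genes tested, 4.19% were higher (4.54% with the Alb covariate). Fos, at a log2 fold change of 1.63 (1.69 with the Alb covariate), held 1873 counts in Activity Reduction replicate 3 and 51.3 to 171 in the other 6, beside 25 to 295 in the Inactive group, and without that replicate it was at -0.22. DESeq2 gave -0.21 on 14 and -0.22 on 21 libraries, but 1.755 on 14 libraries with the Alb covariate, where it gave no p. Fosb and Jun also had their lowest edgeR log2 fold changes without Activity Reduction replicate 3, at 0.79 and 0.25. They reached up to 1.91 and 0.41 without another library. Jund was more even, at 906 to 1442 (median 1247) in the Inactive and 1363 to 2019 (median 1689) in the Activity Reduction group, with a log2 fold change of 0.41 (edgeR adjusted p = 0.411, and 0.38 with the Alb covariate), and DESeq2 on the 14 libraries called it in both fits. Mylpf, the fast regulatory light chain, had a log2 fold change of 0.40 (unadjusted p = 0.00711, and 0.42 with the Alb covariate) but held only 86.1 to 181 counts in the 14 libraries, against group means of 313041 and 342457 for Myl1, another fast light chain, and 24.6% of its exonic length is covered by Septin1 on the other strand. Its value is therefore uncertain. Acta1 (0.13) and Myl1 (0.13) were the other 2 of 12 fast fiber genes past an unadjusted p of 0.05, and Myh4 was at 0.12 (unadjusted p = 0.0942). With the Alb covariate 4 were past it, Tnni2 being the addition, and Myh4 was at 0.13.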

How the data were processed

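Poly(A) RNA-seq libraries of the medial gastrocnemius of 21 female mice, 7 per group, were analysed. Per the labels and the study's methods, the authors used fastp for trimming, STAR for alignment to GRCm39 and featureCounts for counting per gene. The deposited values are whole-number counts per gene without normalization (40853 genes). The strand setting and annotation release are not given in the sources used here. The other deposited table, although its name speaks of normalization, was equal in all 857913 values (largest difference 0) and was not used. Groups were taken from the labels. Counts were fitted with edgeR 4.0.16 (TMM, filterByExpr, quasi-likelihood test) on all 21 libraries, which share 1 estimate of the spread, with the contrast Activity Reduction minus Inactive and Benjamini-Hochberg adjustment over 16129 genes. The same fit was repeated with Alb above or below 250 CPM as a covariate. An alternative was DESeq2 1.42.0, which is also the authors' tool (genes without an adjusted p were left out). Normalized counts are counts divided by DESeq2 size factors over 21 libraries. Named transcripts were those called, the 30 with the smallest p, up to 4 members of each list with an unadjusted p under 0.05, and 8 named by the study. Other genes in the text are members of the lists and transcripts whose groups do not overlap, and were chosen after their values were seen. The genes and lists were chosen with earlier results of these data known. Each library came from a different mouse, and cage or sequencing batch is not given in the sources used here. The edgeR procedure was tested on simulated data for this comparison (16129 genes), with 50 genes changed at each size. It called 42% of changes of 1.25-fold, 60% of 1.5-fold, 72% of 2-fold and 94% of 3-fold. The simulated counts followed the fitted model, and many changed genes ease the adjusted threshold. The rates for the real data may therefore be lower. Gene positions and exon overlaps are from GENCODE vM39 (GRCm39), matched by symbol. Alternatives included leaving out each library and, chosen after seeing the data, 3 that concern slow fiber transcripts. One member of the list of limb and muscle identity factors is not reported here.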

Additional observations from a re-analysis of the deposited data

Results flagged for a closer look

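Among 62 groups of 7 libraries examined, 1 for each of 31 leading transcripts in each of the 2 groups, 4 had a highest library that stood far from the rest by Dixon's ratio (gap to the nearest library divided by the range, critical value 0.568), where chance gives about 1 in 20. Ostn in Inactive replicate 5 was at 3929 normalized counts with the nearest library at 2993 (ratio 0.638). Ak4 in Inactive replicate 1 was at 1192 with the nearest at 930 (0.599), and in Activity Reduction replicate 7 it was at 846 with the nearest at 586 (0.666). Mgst3, a glutathione transferase, was at 5507 in Activity Reduction replicate 6 with the nearest at 4698 (0.581). Without Activity Reduction replicate 7, edgeR's quasi-likelihood test called Ak4 (log2 fold change -0.75, adjusted p = 0.0206), and without Inactive replicate 5 the log2 fold change of Ostn was -0.45.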

How the results depend on the processing

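The count of 2 called transcripts, both higher, depended on the tool and the libraries. DESeq2 called 21 (14 higher, 7 lower) on 21 libraries and 43 (26 and 17) on 14, where edgeR called 0 (smallest adjusted p 0.067, 1122 at an unadjusted p under 0.05). With Alb as covariate edgeR called 1 (1 higher) on 21 and 0 on 14 libraries, and DESeq2 35 (22 and 13). Log2 Alb as a continuous covariate gave 3 (1 lower), libraries with Alb below 250 alone 0 (1355 at an unadjusted p under 0.05), DESeq2 size factors in edgeR 0 (606 higher and 629 lower at an unadjusted p under 0.05, where the main split was 676 and 571), and no filter on low counts 2 (1 higher, 1 lower) with 2211 at an unadjusted p under 0.05, of which 1042 were higher and 1169 lower. The replicate block gave 4 (3 higher, 1 lower) and the block with the Alb covariate 0. The replicate numbers are shared by label only: same-numbered libraries correlated at -0.18 to 0.47, 3 of 7 pairs over 0.1, and 2 of 7 correlated best with their own number. Leaving out 1 library gave 0 to 4 calls (0 to 4 higher, 0 to 2 lower) and 864 to 1475 genes at an unadjusted p under 0.05. There were 4 calls without Activity Reduction replicate 3, 3 without replicate 7, 1 without replicate 2 or 4, and 0 without replicate 1, 5 or 6 or any 1 Inactive library.

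Alternatives added after seeing the data were a slow fiber covariate (0 called), that covariate with Alb (0) and leaving out 4 libraries low in slow fiber transcripts (5 called, 1 higher and 4 lower). The slow fiber sum differed between the groups, so the covariate also takes up part of the contrast. Leaving out the 4 libraries also removed the 2 Activity Reduction libraries above 250 CPM of Alb. Under the slow fiber covariate, alone and with Alb, log2 fold changes turned positive for Myh7 (0.06998 and 0.079), Myl2 (0.16 and 0.158), Myl3 (0.13 and 0.128), Tnnt1 (0.12 and 0.117), Tnni1 (0.25 and 0.249), Tnnc1 (0.16 and 0.15) and Myh7b (0.0077 and 0.0049), which are among the genes summed in the covariate. Fos turned negative in DESeq2 on 14 (-0.21) and 21 libraries (-0.2157, with no adjusted p), but not on 14 with the Alb covariate (1.755, with no p). Its edgeR log2 fold change ranged from -0.22 to 2.08 with 1 library left out. Of 3806 pairs of 129 named genes and alternatives that gave an adjusted p, 3651 kept direction and side of the threshold, 43 lost and 96 gained a call, and 16 changed sign. Only Smyd2 and Kcnj11 were called in the main fit, so only their pairs could lose a call. Most other pairs kept their side by staying uncalled, so the 3651 are no measure of how stable the 2 calls were. Dropping the fold threshold changed none of the 129. The cause of these changes was not tested. With 42% of simulated 1.25-fold changes recovered, small differences can be missed at this size.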
